A study of Mus musculus with 4 samples.

Results

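The immunity-related GTPases (IRG proteins) are interferon-induced enzymes that defend mouse cells against parasites and bacteria living inside membrane vacuoles. The 9 family members described here are the rows of the deposited gene table whose symbol is Irgm1, Irgm2, Igtp, Iigp1, Ifi47, Tgtp1, Tgtp2, Gm4951 or Gm12250, out of 17039 genes in all. All 9 passed the filter on low counts. RNA was sequenced from T cells of the spleens of 4 C57BL/6 mice. A recombinant adeno-associated virus (AAV) carrying interleukin-27 (IL-27) had been injected into muscle in 2 mice (AAV-IL-27, replicates 1 and 3), and a control AAV in the 2 others (AAV-ctrl, replicates 1 and 3), about a month before the spleens were taken. T cells were separated magnetically, and the series title calls them CD8+. Every mouse thus carried an AAV, and the promoter that drove IL-27, the serum level it reached and the age of the mice are not given in the sources used here.

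IRG proteins fall into a pair of classes. The effectors, here Iigp1 (also called Irga6), Tgtp1 and Tgtp2 (Irgb6), Gm12250 (Irgb10), Ifi47 (Irgd) and Gm4951 (Ifgga2), include proteins that bind GTP, coat the vacuole around a parasite such as Toxoplasma gondii and break its membrane. The regulators Irgm1, Irgm2 and Igtp (Irgm3), which carry a methionine in place of a lysine in the GTP-binding loop, sit on the cell's own membranes and hold the effectors inactive there. Interferon-gamma is the classical inducer, acting in part through the transcription factor Irf1. In mice, Irgm1 is also known for keeping T cells alive when they are exposed to interferon-gamma. IL-27 is a cytokine that acts on T cells through a receptor that contains the chain Il27ra.

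All 9 members were higher in AAV-IL-27 than in AAV-ctrl, by 2.38-fold (Ifi47) to 96.4-fold (Gm4951) in the fit across all genes. Each passed the test (edgeR's quasi-likelihood test, Benjamini-Hochberg adjusted over the 12887 genes tested, threshold 0.05), and the largest adjusted p was 0.000862, for Irgm2. The background to this count is high, as 39.0% of all tested genes were called, 21.3% higher and 17.7% lower. Rises of at least 2-fold were called for 5.25% of tested genes and for all 9 members. Rises of at least 4-fold were called for 1.62% of tested genes and for 4 members, Igtp, Iigp1, Gm4951 and Gm12250. No member's FPKM values overlapped between the groups, which was also true of 30.7% of tested genes in the upward direction. The median log2 fold change was 1.71 over the members and -0.00528 over all tested genes. FPKM, counts per gene length and library size, is taken as the unit of all levels below. Log2 fold changes (AAV-IL-27 over AAV-ctrl) come with their standard error (SE). The design text speaks of separate mice, so the spread within a group is that between animals, with n = 2 in each group. In bulk RNA, more transcript per cell and more cells that hold the transcript cannot be told apart.

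Taken as a whole, the family's expected counts made up 0.297% and 0.313% of all counts in AAV-IL-27 replicates 1 and 3, against 0.0848% and 0.0797% in AAV-ctrl replicates 1 and 3. Total counts were close in all libraries, from 15742523 to 16182453. Neutrophil transcripts also differed between the groups and are given with the other marker genes after the pathway genes.

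**Figure D1:**
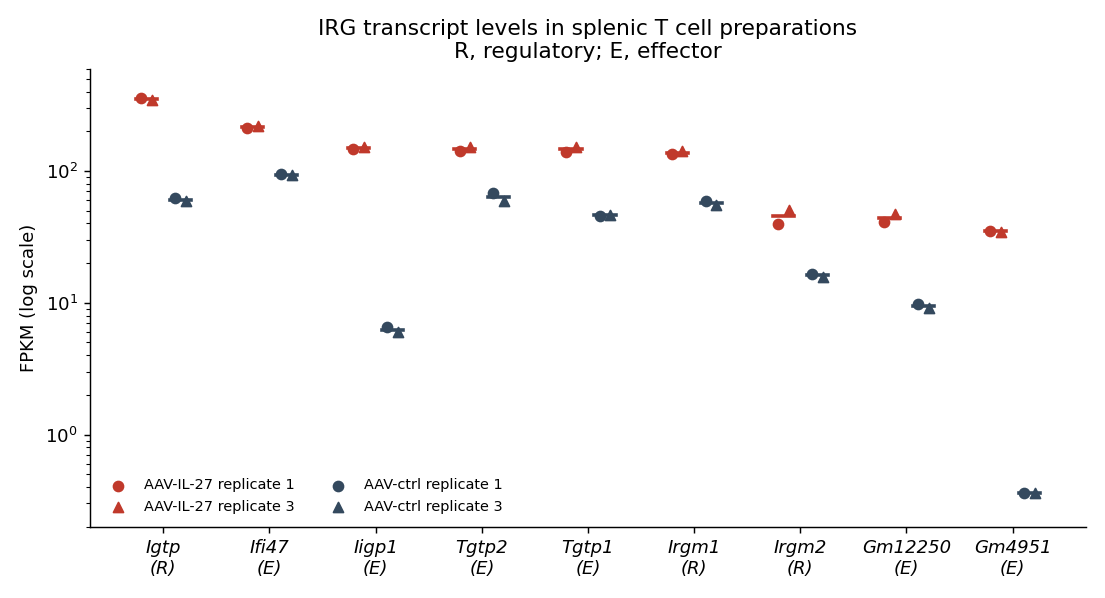
FPKM of each of the 9 members (log axis) in the 2 AAV-IL-27 libraries (red, left) and the 2 AAV-ctrl libraries (dark blue, right). Circles are replicate 1, triangles replicate 3 and bars the group mean. Every red point lies above both dark points of its gene, and the gap is widest for Gm4951 and Iigp1.

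Among the regulators, Igtp changed most. Igtp (NCBI Gene 16145, chromosome 11, 58199556 to 58207592 in GRCm38.p6) had 358 and 347 FPKM in AAV-IL-27 and 62.3 and 59.2 FPKM in AAV-ctrl. The libraries of a group lay close together and the groups far apart, with a log2 fold change of 2.59 ± 0.052 SE (adjusted p = 4.47e-09 in edgeR). With a mean of 353 ± 7.81 FPKM (SD, n = 2), Igtp was the most abundant IRG transcript in AAV-IL-27, where the next member, Ifi47, stood at 216 ± 5.53 FPKM. In AAV-ctrl it stood behind Ifi47 and Tgtp2, and its range there overlapped that of Tgtp2.

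Irgm1 (NCBI Gene 15944, chromosome 11, 48865245 to 48871420) had 134 and 142 FPKM in AAV-IL-27 and 58.8 and 54.9 FPKM in AAV-ctrl. Its rise of 2.52-fold was among the smaller ones (1.34 ± 0.057 SE on the log2 scale). Irgm2 (NCBI Gene 54396, chromosome 11, 58214977 to 58222783) had 39.9 and 50.7 FPKM in AAV-IL-27 and 16.7 and 15.8 FPKM in AAV-ctrl. It was the least abundant regulator in both groups, and the member whose AAV-IL-27 libraries differed most, by 0.346 on the log2 scale of FPKM. Its log2 fold change of 1.53 ± 0.13 SE carried the widest error of the family, though both AAV-IL-27 values were above both AAV-ctrl values.

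The effectors spanned a wider range. Gm4951 (NCBI Gene 240327, chromosome 18, 60212004 to 60248440) had 35.2 and 34.7 FPKM in AAV-IL-27 and 0.36 FPKM in each AAV-ctrl library. In expected counts these levels were 1734 and 1722 in AAV-IL-27 and 18.2 and 17.9 in AAV-ctrl. It was the scarcest member in both groups and nearly silent in AAV-ctrl. Its rise was the largest of the family (6.59 ± 0.10 SE on the log2 scale, edgeR adjusted p = 1.05e-09). Among the genes that passed the test it had rank 12 by size of rise.

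Iigp1 (NCBI Gene 60440, chromosome 18, 60373616 to 60392634), the best studied effector, had 146 and 152 FPKM in AAV-IL-27. In AAV-ctrl it had 6.50 and 5.96 FPKM. By level only Gm4951 stood below it in AAV-ctrl, while in AAV-IL-27 only Igtp and Ifi47 stood above it. Iigp1, Tgtp2, Tgtp1 and Irgm1 followed each other in AAV-IL-27 with overlapping ranges between neighbours. The fold was 24.6 (log2 fold change 4.62 ± 0.067 SE).

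Gm12250 encodes Irgb10, which acts on the membranes of bacteria in the cytosol together with guanylate-binding proteins (NCBI Gene 631323, chromosome 11, 58183843 to 58190198). It had 41.1 and 47.0 FPKM in AAV-IL-27 and 9.82 and 9.13 FPKM in AAV-ctrl, a rise of 4.81-fold (log2 fold change 2.27 ± 0.081 SE). Its range overlapped that of Irgm2 in AAV-IL-27 and lay below it in AAV-ctrl.

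Ifi47 (NCBI Gene 15953, chromosome 11, 49076587 to 49096987) had 212 and 220 FPKM in AAV-IL-27 and 95.3 and 93.0 FPKM in AAV-ctrl. It was the most abundant member in AAV-ctrl, with no overlap with the next, and had the smallest rise (1.25 ± 0.048 SE on the log2 scale).

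Tgtp1 and Tgtp2, named T cell-specific GTPases for the cells in which the gene was found, are near-copies of each other. Of all 50-base stretches of the annotated Tgtp1 transcripts, 81.2% also occur in transcripts of other genes, nearly all in Tgtp2, and 86.6% of those of Tgtp2 do. With 100-base stretches the shares were 73.1% and 76.8%. For each of the other 7 members the share was at most 11.8% at 50 bases, the value of Igtp, whose shared stretches all lie in Irgm2. How the authors' software split reads between Tgtp1 and Tgtp2 therefore matters, and their single values are uncertain. Tgtp1 (NCBI Gene 21822, chromosome 11, 48985329 to 48992246) was given 139 and 153 FPKM in AAV-IL-27 and 45.7 and 46.5 FPKM in AAV-ctrl. Tgtp2 (NCBI Gene 100039796, chromosome 11, 49057196 to 49064212) was given 141 and 152 FPKM in AAV-IL-27 and 68.4 and 58.8 FPKM in AAV-ctrl. The copies had nearly equal levels in AAV-IL-27, while Tgtp2 stood above Tgtp1 in both AAV-ctrl libraries. The log2 fold change was 1.71 ± 0.058 SE for Tgtp1 and 1.25 ± 0.077 SE for Tgtp2. Summed before the fit, which makes the split irrelevant, the pair rose by 1.46 ± 0.060 SE on the log2 scale (edgeR adjusted p = 3.73e-07).

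The promoter sequences of 7 members, all on chromosome 11, were read from the RefSeq table of the same build, GRCm38.p6. Each window ran from 250 bases before to 50 after the annotated start. Gm4951 and Iigp1, the members with the largest rises, were left out of this search. The motif counts among members below therefore do not cover the whole family. The 7 windows were searched for a pair of elements through which interferons act. One is the core of the interferon-stimulated response element (ISRE, bound by IRF proteins), searched as GAAANNGAAA on both strands. The other is the gamma-activated site (GAS), searched as TTCNNNGAA, which reads the same on both strands. The ISRE core occurred in 6 of the 7 windows and in 3.44% of the 32851 promoter windows of the table. GAS occurred in 5 of the 7 and in 8.30% of all windows, and both together in 5 of the 7 and in 0.454% of all windows. Such a match is a description of letters, not evidence of binding.

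The stretches that hold the matches are shown because most of them share one arrangement. Each is written along its gene's strand with 20 bases on either side, and capitals mark the GAS and ISRE core matches.
Igtp (chr11:58199491-58199551, plus strand): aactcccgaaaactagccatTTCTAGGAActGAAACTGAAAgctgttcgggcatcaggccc
Irgm2 (chr11:58214882-58214942, plus strand): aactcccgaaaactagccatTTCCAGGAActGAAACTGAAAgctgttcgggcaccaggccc
Tgtp1 (chr11:48992294-48992354, minus strand): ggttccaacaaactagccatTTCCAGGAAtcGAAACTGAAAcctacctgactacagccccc
Tgtp2 (chr11:49064253-49064313, minus strand): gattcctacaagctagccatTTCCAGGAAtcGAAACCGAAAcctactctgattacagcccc
Gm12185 (chr11:48927228-48927288, minus strand): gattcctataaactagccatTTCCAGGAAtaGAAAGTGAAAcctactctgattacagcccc
Gm12250 (chr11:58183732-58183826, plus strand): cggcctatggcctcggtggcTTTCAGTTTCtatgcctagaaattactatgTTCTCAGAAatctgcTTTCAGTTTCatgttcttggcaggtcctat
Irgm1 (chr11:48871415-48871470, minus strand): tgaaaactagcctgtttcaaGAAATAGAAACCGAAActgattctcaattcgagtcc

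In Igtp, Irgm2, Tgtp1 and Tgtp2 the GAS match was followed after 2 bases by the ISRE core. The GAS match began 45 bases before the annotated start in Igtp, 75 in Irgm2, 88 in Tgtp1 and 81 in Tgtp2. This joined form, TTCNNNGAANNGAAANNGAAA, was searched after the promoters had been read. It occurred in 5 of the 32851 windows, those of the 4 members and that of Gm12185, an IRG locus outside the list. Of the other IRG loci searched, on chromosomes 7 and 11, 9930111J21Rik1 held an ISRE core alone, and 9930111J21Rik2, Gm5431 and Irgq held neither motif. All 5 genes with the joined form rose, beside 21.3% of all tested genes, with log2 fold changes from 1.25 (Tgtp2) to 2.59 (Igtp). The form was taken from promoters of members already known to rise, and only Gm12185 lay outside them. The count therefore says nothing about the motif. The sizes differed among near-identical promoters, with 2.59 for Igtp and 1.53 for Irgm2. Gm12250 carried the GAS match between a pair of ISRE cores on the opposite strand, 6 bases from the nearer one. Irgm1 carried overlapping ISRE cores, starting 30 and 24 bases before the start, and no GAS match.

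Some pairs of windows also resembled each other beyond the elements. In global alignments, 92.1% of the 265 aligned bases were identical between the Igtp and Irgm2 promoters, and 80.5% of 272 between Tgtp1 and Tgtp2. The other pairs of the 7 windows lay between 56.9% and 68.2%, and no unrelated promoters were aligned for comparison. For Igtp with Irgm2 and for Tgtp1 with Tgtp2, the shared elements are therefore part of a longer shared sequence. Ifi47 held neither motif in its window. In the GENCODE annotation of the build, 4 of its 5 transcripts begin 10113 bases or more downstream of the start used here, so the window does not cover those starts. For Irgm2, 1 of 3 GENCODE transcripts begins far upstream, at position 58199618 inside Igtp. Gm12250 has a single GENCODE transcript, listed as a processed pseudogene and beginning 3896 bases downstream, while RefSeq lists the gene as protein-coding.

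Outside the family the motifs were common among genes that did not rise, and these shares were not tested. Of 402 tested genes outside the family with an ISRE core in a promoter window, 119 rose (29.6%), beside 21.3% of the 10271 tested non-members with a promoter in the table. Of 871 with a GAS match, 198 rose (22.7%).

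**Figure D2:**
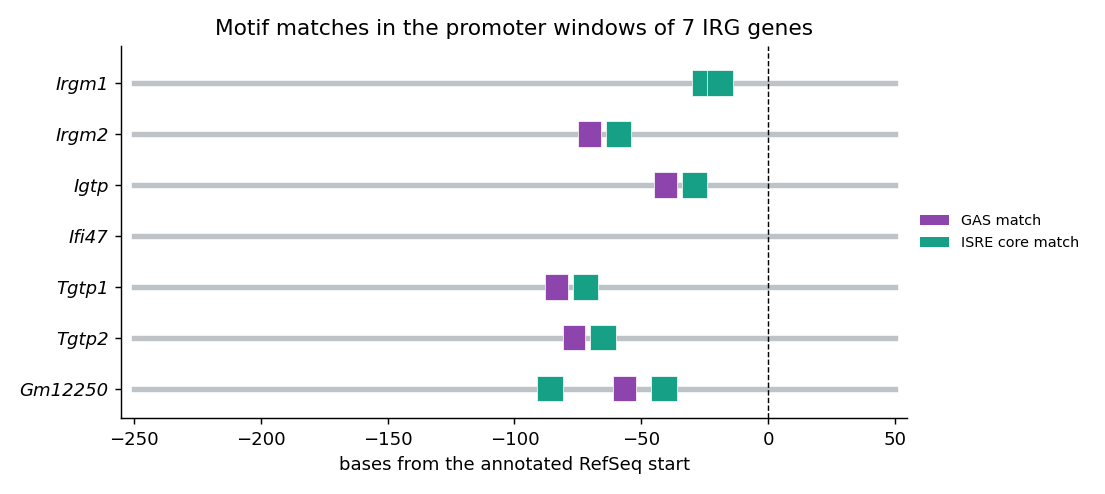
Positions of GAS (purple) and ISRE core (green) matches in the promoter windows of 7 IRG genes, in bases from the annotated start (dashed line). In Igtp, Irgm2, Tgtp1 and Tgtp2 the purple and green blocks stand side by side, 2 bases apart, and Ifi47 has none.

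The members lie in 3 gene clusters, described here with no test. The pair on chromosome 18, Gm4951 and Iigp1, 181 kb from end to end, had log2 fold changes of 6.59 and 4.62. In the distal cluster on chromosome 11, which spans 39 kb, Gm12250, Igtp and Irgm2 had values from 1.53 to 2.59. In the proximal one, which spans 232 kb, Irgm1, Tgtp1, Tgtp2 and Ifi47 had values from 1.25 to 1.71. The ranges of the chromosome 11 clusters overlapped, and both members on chromosome 18 lay above them.

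Other IRG loci, from a list of 9 of which the table held 8, moved less uniformly. Of the 8, 4 were called higher, 1 was called lower and 3 did not pass, beside 21.3% of all tested genes called higher and 17.7% called lower. On chromosome 18, between the member genes, Gm4841 (Ifgga3) had 20.9 and 20.5 FPKM in AAV-IL-27 and 0.35 and 0.43 FPKM in AAV-ctrl (log2 fold change 5.77 ± 0.12 SE). F830016B08Rik (Ifgga4) had 20.3 and 20.7 FPKM in AAV-IL-27 and 4.22 and 4.45 FPKM in AAV-ctrl (2.57 ± 0.069 SE). Both stood apart between the groups, as their neighbours Gm4951 and Iigp1 did. On chromosome 11, Gm12185 had 14.5 and 16.7 FPKM in AAV-IL-27 and 5.35 and 5.12 FPKM in AAV-ctrl (1.63 ± 0.081 SE).

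The remaining loci differed from these. 9930111J21Rik1, which lies between Irgm1 and Tgtp1, was well expressed with 62.9 and 71.4 FPKM in AAV-IL-27 and 61.4 and 64.0 FPKM in AAV-ctrl. These ranges overlapped (0.15 ± 0.064 SE on the log2 scale, edgeR adjusted p = 0.0954). The gene passed with the replicate block (0.0488) and without AAV-IL-27 replicate 1 (0.00725). Gm5431 had 2.24 and 3.19 FPKM in AAV-IL-27 and 2.31 and 2.51 FPKM in AAV-ctrl (edgeR adjusted p = 0.391). 9930111J21Rik2 had 8.39 and 8.98 FPKM in AAV-IL-27 and 7.42 and 7.02 FPKM in AAV-ctrl and passed at 0.32 ± 0.092 SE (edgeR adjusted p = 0.0233). That call was lost when AAV-IL-27 replicate 3 (adjusted p = 0.0732), AAV-ctrl replicate 1 (0.0931) or AAV-ctrl replicate 3 (0.167) was left out, and with DESeq2 (0.216). Scaling to T cell genes (edgeR adjusted p = 0.569) also ended the call of 9930111J21Rik2. So did limma on log2(FPKM + 1) (0.0526) and on log2(FPKM + 0.1) (0.0513). On chromosome 7 and away from the interferon-induced clusters, Irgc1, known from the testis, had 0.71 and 0.91 FPKM in AAV-IL-27 and 2.16 and 1.46 FPKM in AAV-ctrl. Its fall (-1.16 ± 0.30 SE, edgeR adjusted p = 0.0144) was no longer called when AAV-IL-27 replicate 1 (0.059) or AAV-ctrl replicate 1 (0.179) was dropped, or with DESeq2 (0.0933). Irgq had 6.89 and 6.99 FPKM in AAV-IL-27 and 8.38 and 7.91 FPKM in AAV-ctrl (-0.18 ± 0.066 SE, edgeR adjusted p = 0.0562). Irgq was called lower with upper-quartile factors (0.0211), library size alone (0.0207) and scaling to T cell genes (0.013).

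**Figure D3:**
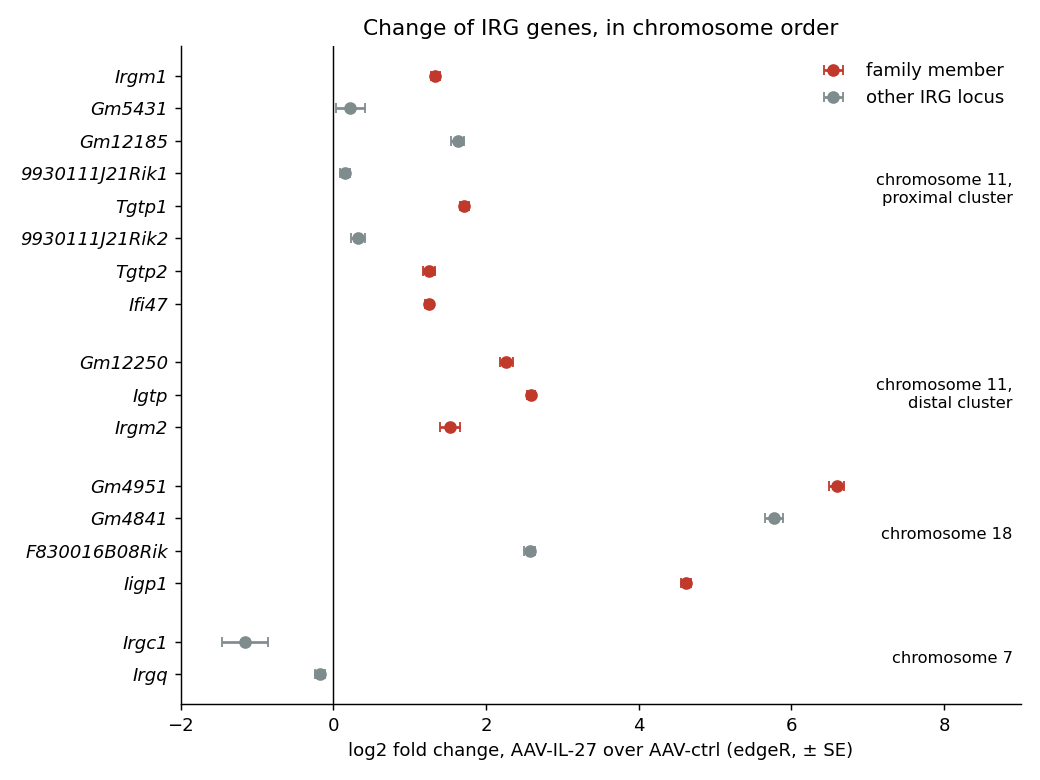
Log2 fold change (edgeR, AAV-IL-27 over AAV-ctrl) with its SE for the 9 members (red) and the 8 other IRG loci of the table (grey), in chromosome order. The chromosome 18 genes reach 6.59, while 9930111J21Rik1 and Gm5431 lie near 0 among members that rose.

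Genes near the members, the listed IRG loci left out, were called about as often as all genes. Of the 19 tested within 200 kb of a member, 5 rose, 4 fell and 10 did not pass, beside 21.3% of all tested genes called higher and 17.7% called lower, and their median log2 fold change was -0.0281. Of these 19, 3 were called at least 2-fold higher, all at low levels, beside 5.25% of all tested genes. Olfr56, an olfactory receptor gene, had 0.78 and 0.75 FPKM in AAV-IL-27 and 0.33 FPKM in each AAV-ctrl library. It shares transcript stretches with Ifi47, so its value is uncertain, and its call was lost whichever library was left out (adjusted p from 0.0849 to 0.160). The pseudogene Gm46612 had 2.05 and 1.19 FPKM and 4930438A08Rik 0.49 and 0.78 FPKM in AAV-IL-27, and both genes are listed at 0 in each AAV-ctrl library. Their log2 fold changes, 7.85 ± 1.04 SE and 7.48 ± 1.06 SE, were larger than that of any member. Gm46612 lies between F830016B08Rik and Iigp1 on chromosome 18, and whether it is an IRG locus was not checked. Mrpl22, which lies 4263 bases from Gm12250, had 15.7 and 14.2 FPKM in AAV-IL-27 and 17.1 and 16.6 FPKM in AAV-ctrl (edgeR adjusted p = 0.516). Psme2b, between Irgm1 and Tgtp1, had 58.6 and 62.1 FPKM in AAV-IL-27 and 57.5 and 59.9 FPKM in AAV-ctrl (edgeR adjusted p = 0.284). Both were named after their values were seen.

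The balance of regulators and effectors depended on which effectors were counted. Log2 fold changes ran from 1.25 to 6.59 in the 6 effectors (median 1.99) and from 1.34 to 2.59 in the 3 regulators (median 1.53), so the classes overlapped. Ifi47 and Tgtp2 rose by less than any regulator, while Iigp1 and Gm4951 rose by more than any regulator. The placing of Tgtp2 holds only for the deposited split of reads, since Tgtp1 and Tgtp2 summed rose by 1.46, above Irgm1 at 1.34. Summed over the class, effectors had 714 and 759 FPKM in AAV-IL-27 and 226 and 214 FPKM in AAV-ctrl. Regulators summed to 533 and 540 FPKM in AAV-IL-27 and to 138 and 130 FPKM in AAV-ctrl. Effectors thus held 57.3% and 58.4% of the family's summed FPKM in AAV-IL-27, against 62.1% and 62.2% in AAV-ctrl.

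The shares moved with single genes. Igtp gained 292 FPKM between the group means, while Iigp1, the effector with the largest gain, gained 143 FPKM. Leaving Tgtp1 and Tgtp2 out of the effectors gave 44.9% and 45.6% in AAV-IL-27 against 44.8% and 45.5% in AAV-ctrl, which overlap. Leaving Iigp1 out gave 51.6% and 52.9% in AAV-IL-27 against 61.4% and 61.5% in AAV-ctrl. Members of a class share their libraries and are not replicates, so no test was made of the class difference.

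**Figure D4:**
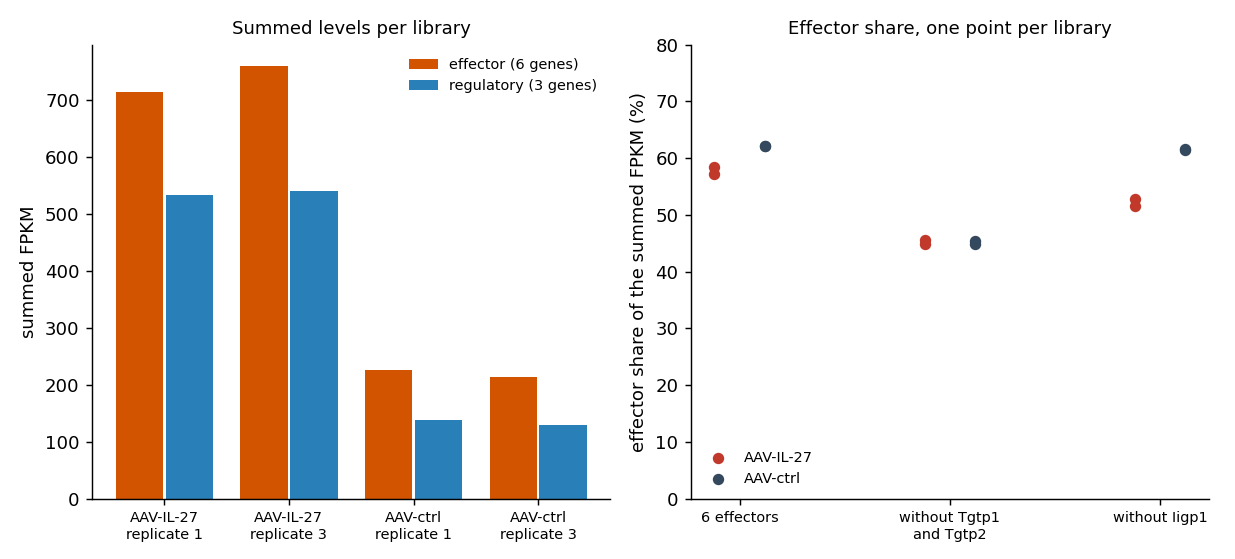
Left, FPKM summed over the 6 effectors (orange) and the 3 regulators (blue) in each library. Right, effector share of the summed FPKM in percent, 1 point per library, with all effectors (57.3% and 58.4% in AAV-IL-27), without Tgtp1 and Tgtp2, and without Iigp1. The groups separate in the first and last comparison and overlap in the middle one.

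Genes around the IRG pathway moved to different degrees. All 10 tested guanylate-binding proteins, a sister family of interferon-induced GTPases, rose, beside 21.3% of all tested genes (median log2 fold change 1.60). The count was 9 with DESeq2 (Gbp2b, adjusted p = 0.166), when scaled to T cell genes (Gbp9, 0.139), and without AAV-IL-27 replicate 3 (Gbp2b, 0.199), AAV-ctrl replicate 1 (Gbp2b, 0.0651) or AAV-ctrl replicate 3 (Gbp2b, 0.217). These genes are named for the lost calls, and Gbp2b was under 1 FPKM in every library. Gbp10 had 52.4 ± 0.665 FPKM in AAV-IL-27 and 7.03 ± 0.431 FPKM in AAV-ctrl (SD, n = 2 each). Gbp2 had 173 ± 1.12 FPKM in AAV-IL-27 and 34.8 ± 1.35 FPKM in AAV-ctrl. Gbp6 had 95.3 ± 0.997 FPKM in AAV-IL-27 and 25.0 ± 0.523 FPKM in AAV-ctrl. The values of Gbp6 and Gbp10 are uncertain, since 70.7% of the 50-base transcript stretches of Gbp6 and 84.1% of those of Gbp10 also occur in other genes, against 2.03% for Gbp2.

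Of 14 genes of interferon signalling, 9 rose, 2 fell and 3 did not pass (median 0.351). Of all tested genes, 21.3% were called higher and 17.7% lower. The 9 include Socs1, a feedback inhibitor of the signal (1.94 ± 0.11 SE). The count of rising genes was 6 when scaled to T cell genes and 8 or 9 under the other alternatives. Irf1, which binds the ISRE core, had 243 ± 11.6 FPKM in AAV-IL-27 and 114 ± 0.948 FPKM in AAV-ctrl (1.14 ± 0.051 SE). Ifng, which encodes interferon-gamma itself, had 35.5 ± 2.72 FPKM in AAV-IL-27 and 6.21 ± 0.212 FPKM in AAV-ctrl (2.56 ± 0.099 SE). The 2 that fell were Ifngr2, a chain of the interferon-gamma receptor (-0.78 ± 0.12 SE, edgeR adjusted p = 0.00247), and the kinase Jak1 (-0.29 ± 0.052 SE, edgeR adjusted p = 0.0023). They are named because they ran against the list, and the call of Jak1 was lost without AAV-ctrl replicate 3 (0.057).

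The cell machinery that IRG proteins work with was called higher about as often as all genes, and lower less often. Of 15 genes for conjugating ATG8 proteins to membranes, which effectors need in order to reach vacuoles, 4 rose, none fell and 11 did not pass (median 0.0818). That is 26.7% higher and 0% lower, beside 21.3% and 17.7% of all tested genes. Gabarapl1 had 6.42 ± 0.516 FPKM in AAV-IL-27 and 3.95 ± 0.163 FPKM in AAV-ctrl (0.75 ± 0.14 SE, edgeR adjusted p = 0.00284). Gabarapl2, of the same family, averaged 67.9 ± 0.834 FPKM in AAV-IL-27 and 56.5 ± 2.12 FPKM in AAV-ctrl (0.32 ± 0.061 SE). Scaled to T cell genes, it was not called (edgeR adjusted p = 0.502). Dropping AAV-ctrl replicate 1 ended its call (adjusted p = 0.0549). Atg3, the conjugating enzyme, stood at 0.20 ± 0.058 SE. It was not called with DESeq2 (adjusted p = 0.182), or in edgeR with upper-quartile factors (0.0672) or library size alone (0.0655). Its call ended with AAV-IL-27 replicate 3 (0.0508), AAV-ctrl replicate 1 (0.156) or AAV-ctrl replicate 3 (0.109) left out, and its sign turned when libraries were scaled to T cell genes (-0.0054). The list then held 1 rising gene with AAV-ctrl replicate 1 left out, 2 with AAV-ctrl replicate 3 left out, 2 with DESeq2, upper-quartile factors or library size alone, and 1 when scaled to T cell genes.

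Of 9 genes for ubiquitin and its adaptors at vacuoles, 2 rose, 1 fell and 6 did not pass (median 0.0894). That is 22.2% higher and 11.1% lower, beside 21.3% and 17.7% of all tested genes. Trim21, a ubiquitin ligase, rose by 0.33 ± 0.055 SE on the log2 scale (edgeR adjusted p = 0.00156). Nbr1, an autophagy receptor at -0.18 ± 0.052 SE, lost its call with AAV-IL-27 replicate 1 (0.051), AAV-ctrl replicate 1 (0.200) or AAV-ctrl replicate 3 (0.0593) left out, and with DESeq2 (0.111). Scaled to T cell genes, Trim21 was not called (0.449) and 0 genes of the list rose. Leaving out either AAV-ctrl replicate left 1 rising gene in this list.

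The genes whose profile over the 4 libraries lay nearest to the mean profile of the members were sought among tested genes whose log2 CPM averaged 2 or more, predicted genes left out. Nearness was the Euclidean distance between log2 CPM values centred on each gene's mean, which reflects mostly the size of the difference between groups. The nearest 5 were Apol10b (distance 0.115), Cysltr2 (0.147), Ly6a (0.147), Tgm2 (0.160) and Serpina3g (0.168). Their log2 fold changes lay between 2.39 and 2.61. Among the members themselves, Igtp was nearest to the mean profile (0.110) and Gm4951 farthest (3.90).

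**Figure D5:**
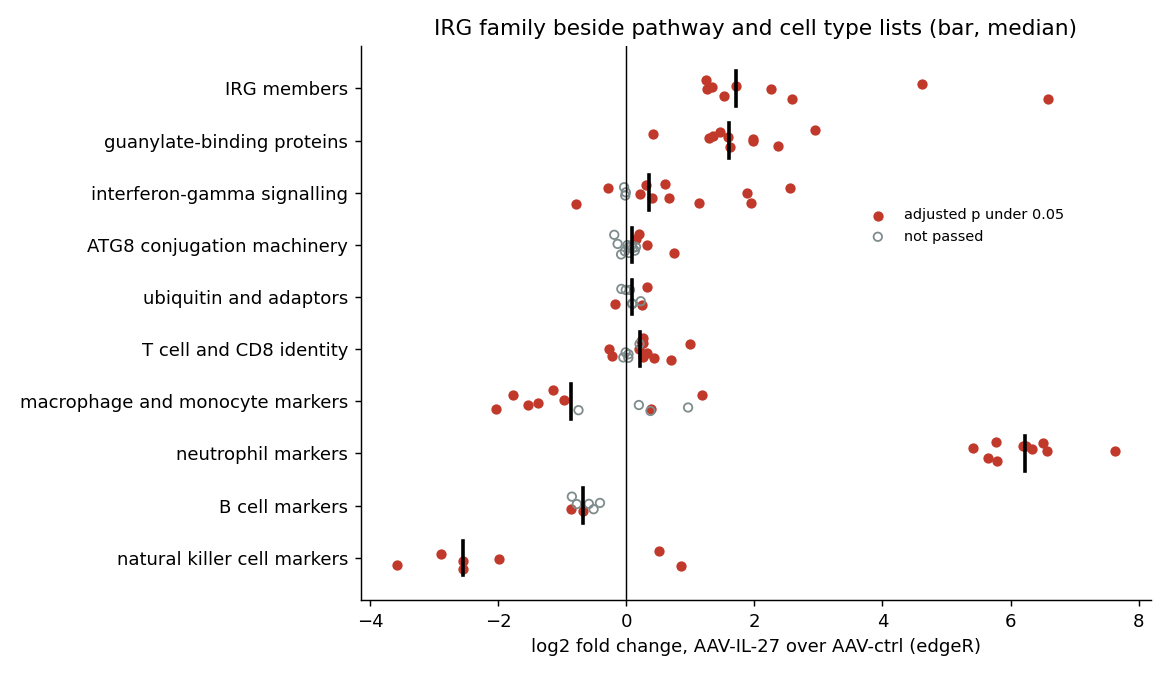
Log2 fold change (edgeR, AAV-IL-27 over AAV-ctrl) of each tested gene of the IRG family, of 4 pathway lists and of 5 cell type lists. Filled red points passed the test, open grey points did not, and black bars are medians. The IRG and guanylate-binding protein genes all lie to the right of 0, the ATG8 and ubiquitin lists lie around 0, and the neutrophil markers lie above 5.

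The make-up of the preparations also differed between the groups, and its part in the IRG values was not tested. All 10 neutrophil markers were higher in both AAV-IL-27 libraries, and summed to 1021 and 1665 FPKM there against 28.9 and 19.3 FPKM in AAV-ctrl. Ngp, a granule protein, reached 286 and 450 FPKM in AAV-IL-27 and 6.19 and 3.83 FPKM in AAV-ctrl, and S100a9 had 333 and 524 FPKM in AAV-IL-27 and 13.7 and 7.22 FPKM in AAV-ctrl. AAV-IL-27 replicate 3 held more neutrophil transcript than AAV-IL-27 replicate 1. The IRG members summed to 1247 FPKM in AAV-IL-27 replicate 1 and 1299 FPKM in AAV-IL-27 replicate 3. Of the members, Igtp and Gm4951 were lower in AAV-IL-27 replicate 3 and all others higher, Irgm2 by the most (0.346 on the log2 scale of FPKM). Whether these differences go together was not tested. Of 12 macrophage and monocyte markers, 5 were higher and 7 lower without overlap. Their sum of 1190 and 1055 FPKM in AAV-IL-27, against 639 and 580 FPKM in AAV-ctrl, was mostly Ly6c2 (1006 and 827 FPKM in AAV-IL-27 against 430 and 405 FPKM in AAV-ctrl), which T cells also express. Lyz2 had 89.7 and 143 FPKM in AAV-IL-27 and 60.3 and 63.2 FPKM in AAV-ctrl. B cell markers summed to 756 and 1055 FPKM in AAV-IL-27 and to 1638 and 1431 FPKM in AAV-ctrl, all 7 lower without overlap. Of 7 natural killer cell markers 2 were higher and 5 lower, and of 7 dendritic cell markers 6 were higher. Of 6 stromal and endothelial markers 2 were higher and 3 lower, and the 6 erythroid markers all overlapped. For comparison, 30.7% of tested genes were higher and 41.3% lower without overlap. No marker of these lists was at 0 in every library. T cell and CD8 identity genes summed to 4011 and 3543 FPKM in AAV-IL-27 and to 3420 and 3476 FPKM in AAV-ctrl. Cd8b1, a chain of CD8, had 626 and 546 FPKM in AAV-IL-27 and 606 and 617 FPKM in AAV-ctrl, and CD4 T cell markers summed to at most 23.6 FPKM in any library.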

How the data were processed

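Per gene and library, the table that the authors deposited holds expected counts, not all of them whole. They also deposited expression values taken here as FPKM, a unit the file header does not name. It was inferred from 8244 genes with counts of at least 200. Between libraries, their ratio of value to count moved as the library totals did (0.99546 against 0.99543 for AAV-IL-27 replicates 3 and 1). Gene length cancels between libraries, so this check cannot show scaling by length. Comparisons of levels between genes, and the class sums, rest on that inferred unit. RSEM 1.2.12, HISAT2 2.0.4, Bowtie2 2.2.5, the build GRCm38.p6 and DESeq2 1.4.5 stand without roles in the submitters' processing notes, and the labels name both poly(A) RNA and ribosomal RNA removal. No source used here says whether strand was used in counting. Group averages in the table were not used.

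Expected counts were rounded, filtered with filterByExpr (12887 of 17039 genes), scaled by TMM and fitted with edgeR 4.0.16 in R 4.3.3 (quasi-likelihood, robust, no block, two-sided). The SE is the log2 fold change divided by the square root of F. The fit was tested on simulated data. DESeq2 1.42.0, limma 3.58.1, other scalings, no filter and leaving out each library were the alternatives. The members, lists and rules were chosen with earlier results of these data known. The named genes are the members, other IRG loci, the 3 genes of smallest p per pathway list, the 5 nearest profiles, neighbours within 200 kb called at least 2-fold higher, and the most abundant markers, with other names marked as such. Results of some genes under this rule are not reported here. Of the most abundant markers, those of some lists are given as list counts only. Of 17039 genes, 16921 matched the RefSeq table by NCBI Gene number. Promoters come from that table, and shared stretches from GENCODE M21 transcripts. Replicates of a group were not 1 library deposited under several names (chi-square over its degrees of freedom was 6.47 for the AAV-IL-27 pair and 2.49 for the AAV-ctrl pair).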

Additional observations from a re-analysis of the deposited data

How the results depend on the processing

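All 9 members rose under each of the 13 alternatives run, and all 117 member values kept their direction and their side of the threshold. The lowest log2 fold change was 1.04 (Ifi47, scaled to the T cell list) and the largest adjusted p 0.0145 (Irgm2, without AAV-ctrl replicate 3). Gm4951 ranged from 4.72 with limma on log2(FPKM + 1), where a pseudocount shrinks low values, to 6.60 with DESeq2. The count of all changed genes, 5023, was 3185 with DESeq2 and ranged from 2635 to 4886 when 1 library was left out, lowest without AAV-ctrl replicate 1, with 2743 without AAV-ctrl replicate 3. Its split into 2745 higher and 2278 lower turned to 2362 and 2979 with upper-quartile factors, 2363 and 2975 with library size alone, 2255 and 2505 with limma on log2(FPKM + 1) and 1254 and 3815 scaled to the T cell list, which moved the median of all genes from -0.00528 to -0.211. The difference in effector share, -4.31 percentage points, was 0.122 without Tgtp1 and Tgtp2, -9.23 without Iigp1 and -1.58 with counts in place of FPKM, and the cause was not tested. Outside the family, Gm5431 ranged from -0.053 (without AAV-IL-27 replicate 3) to 0.455 when 1 library was left out, and 9930111J21Rik1 (-0.048) and Atg3 (-0.0054) turned when scaled to the T cell list. The labels do not say whether equal replicate numbers pair the libraries. The correlation of deviations (-0.000711) cannot decide this, since 2 libraries a group give a single value. With the replicate block 4971 genes and all 9 members were called, and 9930111J21Rik1 passed (edgeR adjusted p = 0.0488). With 2 libraries a group the spread rests on few mice.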
